A study of Mus musculus with 4 samples.

Results

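Wide methylated domains are the broadest stretches over which methylated DNA was called in these islets. They were selected on the position and width of the called peaks, by joining the peaks of all 4 libraries wherever peaks overlapped by at least 1 bp on chr1 to chr19, and by keeping every joined region of 5000 bp or more. There were 584 such domains among 180857 autosomal regions (0.323%), and they held 3.58 Mb of the 235.7 Mb covered by those regions (1.52%). The assay was MeDIP-seq, in which an antibody against 5-methylcytosine pulls down methylated fragments that are then sequenced, in pancreatic islets isolated from mice 8 weeks old. The WT mice carried Raptor lox/lox without Cre, and the βRapKO mice carried Raptor lox/lox with RipCre, a Cre driven by the rat insulin promoter, so that both genotypes shared the floxed allele and only βRapKO lost Raptor in insulin-expressing cells. The mice were male littermates on a C57BL/6 background, the RipCre parent line was of mixed C57BL/6J:129/SvJ origin, and none of these libraries carried RipCre alone. Raptor is an essential subunit of mTORC1, the nutrient-sensing kinase complex. There were 2 libraries per genotype, named WT replicate 1 and 2 and βRapKO replicate 1 and 2, each of whole islets, so that non-beta cells with an intact gene contributed DNA to every library. The labels do not say whether the replicates came from separate mice, so p-values measure only the spread between these libraries. Tag counts of methylated DNA carry no transcripts, and the islet label could not be checked against marker genes.

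In mammals methyl groups sit mainly on the cytosine of CpG dinucleotides. CpG-dense promoters are usually free of methylation, whereas bodies of genes and copies of transposable elements are usually methylated, and methylation of the latter is known to keep them silent. The antibody binds best where several methylated CpG lie close together, so a peak reflects both methylation and CpG density.

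The domains were chosen by peak width, and the values of this paragraph are therefore a description. Domain width ranged from 5002 to 10968 bp, with a median of 5836.5 bp and quartiles of 5309.75 and 6947 bp. A single peak of 5000 bp or more was present in at least 1 library for 495 domains and in every library for 46 domains, and the other 89 were reached only by chaining shorter peaks of different libraries. No single peak was wider than 8722 bp. WT replicate 1 and 2 held 187 and 186 autosomal peaks of 5000 bp or more, and βRapKO replicate 1 and 2 held 234 and 272. Closest above the limit lay regions of 5002 and 5004 bp on chr9, with 247, 193 and 269 tags and no call in βRapKO replicate 2, and with 294, 417, 237 and 323 tags in WT replicate 1 and 2 and βRapKO replicate 1 and 2. Closest below it lay regions of 4999 bp on chr4 and chr8, with 203, 174, 99 and 235 tags and 244, 316, 220 and 174 tags.

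**Figure D1:**
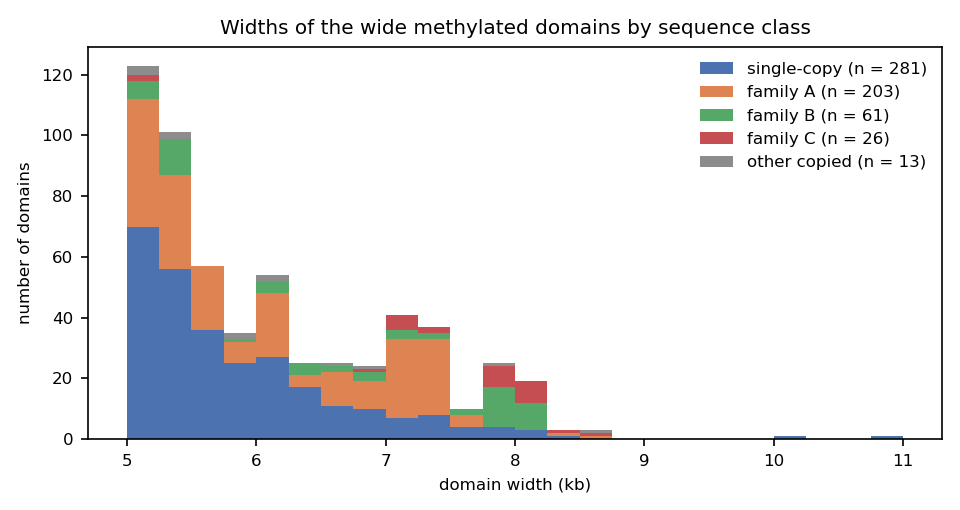
Number of wide methylated domains (y axis) by domain width in kb (x axis, bins of 0.25 kb), stacked by sequence class. Most of the 281 mostly single-copy domains lie at the low end, with a median of 5602 bp, and family C lies further right, with a median of 7826 bp.

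The CpG-rich coding exons under the domains are shown first, because 188 of the 281 domains that are mostly single-copy in the genome overlapped coding sequence. Each line gives the 200 bp with the most CpG within a coding exon of a domain, 5′ to 3′ on the strand of the gene, read from the GRCm38 reference with every CpG in capitals. Spen exon 12 (chr4:141478825-141479024, minus strand, 19 CpG) and Bsn exon 5 (chr9:108115255-108115454, minus strand, 19 CpG) lie in domains called in only some libraries. Fat1 exon 9 (chr8:45023244-45023443, plus strand, 17 CpG) and Ttn exon 274 (chr2:76736314-76736513, minus strand, 13 CpG) lie in domains called in all 4. Nr4a1 exon 2 (chr15:101270115-101270314, plus strand, 11 CpG) lies in the domain with the lowest log2 fold-change, and Hspg2 exon 74 (chr4:137553606-137553805, plus strand, 13 CpG) in a domain called only in βRapKO.
Spen exon 12: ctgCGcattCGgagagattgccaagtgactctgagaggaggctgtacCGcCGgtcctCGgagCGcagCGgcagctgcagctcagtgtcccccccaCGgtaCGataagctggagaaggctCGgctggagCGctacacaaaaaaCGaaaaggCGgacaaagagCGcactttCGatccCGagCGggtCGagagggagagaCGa
Bsn exon 5: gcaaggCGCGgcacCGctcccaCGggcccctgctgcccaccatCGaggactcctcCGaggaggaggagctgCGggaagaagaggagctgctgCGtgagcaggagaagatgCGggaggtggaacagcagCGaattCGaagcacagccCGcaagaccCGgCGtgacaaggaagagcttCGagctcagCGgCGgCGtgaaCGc
Fat1 exon 9: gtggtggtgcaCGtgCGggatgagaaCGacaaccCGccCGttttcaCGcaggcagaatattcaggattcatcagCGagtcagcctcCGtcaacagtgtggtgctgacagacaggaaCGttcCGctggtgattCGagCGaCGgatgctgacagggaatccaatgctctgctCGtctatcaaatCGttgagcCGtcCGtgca
Ttn exon 274: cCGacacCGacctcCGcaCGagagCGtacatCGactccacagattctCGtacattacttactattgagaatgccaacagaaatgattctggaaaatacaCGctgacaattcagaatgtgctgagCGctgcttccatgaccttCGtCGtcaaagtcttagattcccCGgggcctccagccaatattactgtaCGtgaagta
Nr4a1 exon 2: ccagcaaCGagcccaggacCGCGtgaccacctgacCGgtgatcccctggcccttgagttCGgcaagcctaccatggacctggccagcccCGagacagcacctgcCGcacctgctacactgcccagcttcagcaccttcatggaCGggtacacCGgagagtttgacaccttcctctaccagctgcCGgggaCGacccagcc
Hspg2 exon 74: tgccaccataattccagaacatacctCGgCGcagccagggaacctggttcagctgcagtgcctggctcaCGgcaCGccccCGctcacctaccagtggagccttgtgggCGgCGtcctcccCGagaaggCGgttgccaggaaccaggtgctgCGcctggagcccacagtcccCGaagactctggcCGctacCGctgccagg
The windows show CpG spread along protein-coding sequence, in exons downstream of the first exon of each gene.

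By sequence the domains fell into copied and mostly single-copy DNA. The genome was cut into 50-base words, the length of the sequenced tags being 49 to 50 bases, and the share of words of a domain that occur more than once in the genome was counted. This share was at least 50% in 293 domains, under 20% in 270 and in between in only 21. Alignment of the domains to each other, at an identity of at least 80% over at least 50% of the shorter domain, gave 3 large families. Family A held 203 domains, family B 61 and family C 26, leaving 281 mostly single-copy domains and 13 other copied ones. A tag from a copied word cannot be placed on 1 copy by its sequence, so the counts of a copied domain may include tags of other copies.

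The 3 families differed in composition. Family A had a median width of 6028 bp and 2.84 CpG per 100 bp, and a median of 96.7% of its bases were soft-masked as repeats in the reference. Family B was the densest, with 3.70 CpG per 100 bp, a GC content of 53.6% and 57.3% of bases masked. Family C was the widest, with 7826 bp, 2.95 CpG per 100 bp and 79.5% of bases masked. For comparison, all merged regions had a median of 1.60 CpG per 100 bp and 24.4% of bases masked, and the mostly single-copy domains had 2.17 CpG per 100 bp and 14.4%. CpG density thus stood above the regional median in each of the 3 families, while the 13 other copied domains had 1.63 CpG per 100 bp.

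Many members of the families held long direct repeats. Each domain was searched together with 1000 bp on either side, and direct repeats of at least 200 bp, at least 3000 bp apart, were found in 78 of 203 domains of family A (median 353.5 bp), 42 of 61 of family B (median 624 bp) and 15 of 26 of family C (median 431 bp). The median distance between the repeats was 4178.5, 7296.5 and 7984 bp, respectively, and their median identity was between 99.3% and 100% in the 3 families. In the mostly single-copy class only 5 of 281 domains had such repeats, but 8 of the 13 other copied domains had them (median 1751 bp). Direct repeats that flank an internal sequence are known from endogenous retroviruses and other LTR retrotransposons. The search did not require the repeats to lie at the ends of a domain, and no annotation of repeats was used here. The families are therefore given no element names. Of the 290 domains in the families, 226 (77.9%) lay more than 2 kb upstream of, or otherwise beyond, any protein-coding gene, and only 3 overlapped coding sequence.

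**Figure D2:**
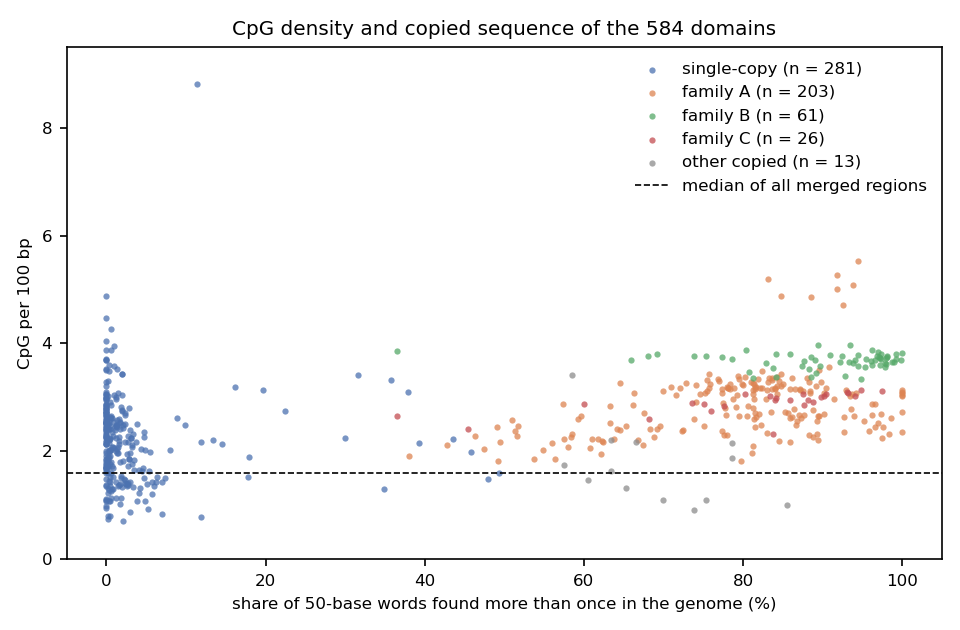
CpG per 100 bp (y axis) against the percent of 50-base words found more than once in the genome (x axis), 1 point per domain, coloured by sequence class, with the median of all merged regions as a dashed line. The points gather at the left and right edges, and family B forms a narrow band near 3.70 CpG per 100 bp.

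The mostly single-copy domains lay mostly in genes, and more often over gene ends than over gene starts. Of these 281 domains, 243 (86.5%) overlapped a gene body and 188 (66.9%) overlapped coding sequence, compared with 50.6% and 17.2% of all merged regions. The start of a protein-coding gene was covered by 8 of them (2.85%, against 0.757% of all regions), and 43 covered a gene end (15.3%, against 1.60% of all regions). For the 231 whose centre lay in exactly 1 gene, the centre stood at a median of 72.5% of the way from the start to the end of the gene, and 108 (46.8%) lay in the last 25% of the gene. The corresponding values for 89066 other autosomal regions were 54.2% and 28.6%. Wide regions overlap any feature more easily than narrow ones, so the shares are set side by side without a test.

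Long coding exons were a particular setting. There were 20 domains over coding exons of 3000 bp or more, in 18 genes, and coding sequence made up 81.2% of their bases. Of all autosomal coding exons that long, 20 of 227 (8.81%) carried a domain, and 71.4% carried a region of any width. Among exons of under 500 bp, 0.602% carried a domain. The exon lay whole within the domain in 13 of the 20 cases. The Bsn domain (chr9:108109378-108116819, 7442 bp) contained the whole 6642 bp coding part of exon 5, which was 89.25% of the domain. Bsn encodes bassoon, a scaffold of the presynaptic active zone. The Hivep2 domain (chr10:14127387-14133045) contained the whole 5139 bp of exon 4 and the Zfhx3 domain (chr8:108945897-108952405) the whole 5454 bp of exon 9, and both genes encode zinc finger transcription factors. The Pkdrej domain (chr15:85815347-85820787) lay almost entirely (99.8%) within exon 1.

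**Figure D3:**
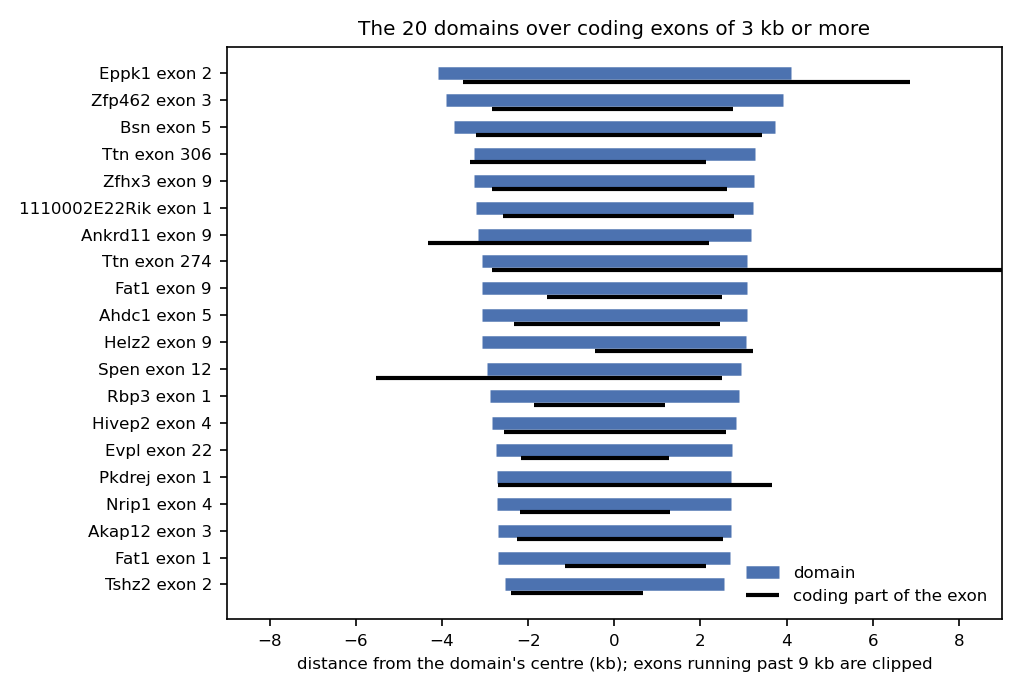
The 20 domains over coding exons of 3 kb or more, drawn to scale around the centre of each domain (x axis, distance in kb), with the coding part of the exon as a black line below each domain. The exon lies whole within the domain in 13 of 20 cases, where it fills from 52.6% (Rbp3) to 90.8% (Hivep2) of the domain. Only Ttn exon 274 runs past the drawn range.

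Of the 20 exon domains, 16 had a peak in all 4 libraries, and Spen, Bsn, Eppk1 and Ankrd11 each lacked a call in at least 1. Both βRapKO libraries lay below both WT libraries in 9 of the 16 (56.25%, against 25.3% of all regions) and above them in 1, and 5 were lower in βRapKO at an unadjusted p under 0.05 (31.25%, against 3.93% of all regions). Those 5 were Ahdc1, Evpl, Helz2, Rbp3 and the domain over Fat1 exon 1, and none passed the FDR. Among all tested wide domains, both βRapKO libraries lay below in 27.8%, and 15.2% were lower at an unadjusted p under 0.05. Among the mostly single-copy domains over coding sequence these shares were 33.6% and 21.2%. The exon domains held a median of 436 tags in the lowest library, against 54 over all regions. The part of tag number and of the choice by width in these shares was not tested. For the domain over Ttn exon 274, the longest coding exon of the set with 17106 bp, WT replicate 1 and 2 had 20.3 and 19.2 tags per 1000000 kept tags (CPM), and both βRapKO libraries had 18.7 CPM. Titin is the giant spring protein of muscle. A second Ttn domain, over exons 304 to 306 (chr2:76708831-76715358), had 20.9, 23.2, 22.1 and 20.6 CPM in the same order, and the genotypes overlapped. Fat1, a giant cadherin, carried domains over exon 1 (chr8:44948670-44954054) and exon 9 (chr8:45021306-45027448). The exon 1 domain had 23.5 and 24.1 CPM in WT and 18.9 and 20.2 CPM in βRapKO. Here both βRapKO libraries lay below both WT libraries, with a log2 fold-change of -0.28 (edgeR's quasi-likelihood test, adjusted p = 0.816). The exon 9 domain had 30.0 and 26.1 CPM in WT and 22.6 and 26.8 CPM in βRapKO, and the genotypes overlapped.

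Whether the genotypes differed was first asked of the calls. A peak was present in all 4 libraries in 460 of 584 domains (78.8%), against 40.3% of all 186169 merged regions and 86.3% of autosomal regions from 3000 to under 5000 bp. The 4 libraries held a peak in 542, 562, 520 and 517 domains (WT replicate 1 and 2, βRapKO replicate 1 and 2). Family A was called in all libraries in 193 of 203 domains (95.1%), family B in 43 of 61, family C in 14 of 26 and the mostly single-copy class in 200 of 281 (71.2%). Among mostly single-copy domains the share was 74.3% from 5000 to under 6000 bp and 52.2% from 7000 to under 8000 bp.

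Only 19 domains were called in both libraries of 1 genotype and in neither of the other. There were 13 in WT only (2.23%, against 4.16% of all regions) and 6 in βRapKO only (1.03%, against 1.58% of all regions), and neither share exceeded that of all regions. The WT-only domains included 6 of families A to C, and all 6 βRapKO-only domains were mostly single-copy. With the caller score of at least 100 the numbers were 18 and 2 of 381 domains. The shares over all regions were not counted at that score.

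Of the WT-only domains, those with the most tags were a family B domain 5831 bp from Zfp42 (chr8:43312811-43320711, 37.6 and 30.6 CPM), the Spen domain (chr4:141473945-141479839, 27.4 and 27.5 CPM), a family C domain between genes (chr3:16792598-16800535, 27.7 CPM in both libraries), a family B domain in an intron of Plcd3 (chr11:103083690-103088999, 23.2 and 27.1 CPM) and a family C domain in an intron of Btbd3 (chr2:138516818-138523970, 24.8 and 23.9 CPM). Spen encodes a large transcriptional repressor, and its domain lay over exon 12. The 6 βRapKO-only domains were in Hspg2, Abcb8, Tmem94, Slc39a11 and at a long noncoding RNA on chr13. Abcb8, a transporter of the mitochondrial inner membrane, carried a pair of neighbouring domains, over exons 2 to 9 (chr5:24397089-24403218, 17.9 and 18.7 CPM) and over exons 10 to 16 (chr5:24404190-24410906, 13.1 and 15.3 CPM), with only 971 bp between them. The Hspg2 domain covered exons 65 to 75 (chr4:137549368-137555330, 10.8 and 15.3 CPM), and Hspg2 encodes perlecan, a basement membrane proteoglycan. The Tmem94 domain (chr11:115787596-115793943) had 13.4 and 15.4 CPM, the Slc39a11 domain (chr11:113479591-113485276) 9.27 and 8.09 CPM, and the domain at 4930455J16Rik (chr13:58753417-58758513) 10.5 and 12.5 CPM.

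For domains with a missing call, the tags of the libraries that called them are given as a description. The 124 domains lacking a call in at least 1 library had a median of 14.7 CPM in the libraries with a call, and the 460 complete domains had a median of 13.9 CPM. Of the 124, 71 (57.3%) lay above the median of the complete ones. A domain lacking a call had to reach its width through the peaks of the other libraries, whereas a complete domain could include libraries with narrow peaks. The comparison is therefore shaped by the selection, and it does not bear on the level where a call is missing. The caller set each peak against the local background of the same library over 10000 bp, a span that a wide domain itself fills to a large part. Median fold enrichment over that background was lowest for peaks of 5000 bp or more. There it was 5.34 in WT replicate 1 and 5.33 in βRapKO replicate 1. From 1000 to under 2000 bp it was 7.71 and 7.25, and under 1000 bp 7.01 and 6.66, in the same order. The part of this background in the missing calls was not tested. Eppk1, which encodes epiplakin, was an example. Its domain (chr15:76101734-76109918, over exon 2) had 60.2, 75.6 and 63.6 CPM in WT replicate 1, WT replicate 2 and βRapKO replicate 2, and no call in βRapKO replicate 1. The Bsn domain was called in WT replicate 2 (28.5 CPM) and βRapKO replicate 1 (20.8 CPM) alone, and a domain in an intron of Kit (chr5:75591597-75600006), a receptor tyrosine kinase, in the same libraries (24.99 and 23.75 CPM). Tags outside peaks were not counted in the files, so the level in a library without a call was not measured.

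Tags were compared in the 460 domains with a peak in all 4 libraries. None passed an FDR of 0.05 and a fold-change of 1.5 in edgeR's quasi-likelihood test, fitted to all 75052 regions with a peak in every library, where 0% passed lower in βRapKO and 0% higher. At an unadjusted p under 0.05, 70 domains were lower in βRapKO (15.2%, against 3.93% of all regions) and 30 higher (6.52%, against 1.88%). Domains hold more tags than other regions, with a median of 310 in the lowest library against 54 over all regions, and the part of this difference in the shares was not tested. Tags were counted only inside peaks, and a domain could reach 5000 bp through wide peaks of only some libraries. Those libraries then hold more of its tags, so the choice by width itself favours larger differences. Its part in the shares was not tested. DESeq2 called 1 domain, higher in βRapKO, and 2 of all 75052 regions, and limma called none.

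Median levels of the genotypes were close. The median CPM of the 460 domains was 13.5 and 14.3 in WT and 12.9 and 14.1 in βRapKO. The median log2 fold-change was -0.04, against -0.06 over all regions, with quartiles of -0.23 and 0.18, and 258 domains (56.1%) lay below 0, against 60.8% of all regions. The direction of this median turned with the library size, to 0.02 with TMM normalization and to 0.12 with the tags in peaks, where 32.8% lay below 0 and the median of all regions moved to 0.10. The median absolute log2 fold-change, a difference of means of 2 libraries, was 0.21. The absolute log2 ratio of the replicate libraries, averaged over WT and βRapKO, had a median of 0.29. These values are not on the same footing. A 1.5-fold difference was exceeded by 32 domains lower in βRapKO (6.96%, against 1.77% of all regions) and 22 higher (4.78%, against 1.29%). The choice by width favours such differences, as described above. Both βRapKO libraries lay below both WT libraries in 128 domains (27.8%, against 25.3% of all regions) and above them in 53 (11.5%, against 11.6%).

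The medians of the classes differed, without a test between them. Over all regions the median log2 fold-change was -0.06, and 60.8% lay below 0. The mostly single-copy domains had a median of -0.12, and 131 of 200 (65.5%) were below 0. Leaving out 1 library moved this median between -0.06 (without WT replicate 2) and -0.26 (without βRapKO replicate 2), and the share below 0 between 54.5% (without βRapKO replicate 1) and 72.5%. Family B had -0.13 with 32 of 43 below 0, family C -0.05 with 8 of 14, and family A 0.04 with 83 of 193. For family A, family B and the mostly single-copy class, the medians were 0.10, -0.06 and -0.05 with TMM. With the tags in peaks as library size they were 0.20, 0.03 and 0.04, all above 0. Another library size moves all regions by nearly the same amount, so these settings could hardly change the order of the classes. Per kb of peak the medians were -0.16, -0.16 and -0.21 in the same order. Both βRapKO libraries lay below both WT libraries in 26 of 43 domains of family B (60.5%), against 25.3% of all regions. In family A this held for 32 of 193 (16.6%). Both βRapKO libraries lay above both WT libraries in 2 of 43 and 33 of 193, respectively, against 11.6% of all regions. The copies of a family share sequence and may share tags, and are not independent.

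The 5 lowest log2 fold-changes were in named genes for 3 domains. The Nr4a1 domain (chr15:101269589-101275018, exons 2 to 7, reaching the gene end) had 292 and 345 tags in WT and 110 and 166 in βRapKO, which is 11.4, 11.01, 3.76 and 5.69 CPM. Both βRapKO libraries were lower, with a log2 fold-change of -1.24 (edgeR's quasi-likelihood test, adjusted p = 0.358). Nr4a1 encodes an immediate-early orphan nuclear receptor. The Zscan20 domain (chr4:128584947-128591258, exons 6 to 8), in a zinc finger gene, had 17.0 and 12.4 CPM in WT and 6.98 and 6.72 CPM in βRapKO, with a difference of -1.09 in log2 (adjusted p = 0.358). The Plekhm2 domain (chr4:141626009-141632760, exons 9 to 20) had 17.7 and 18.8 CPM in WT and 5.17 and 11.6 CPM in βRapKO, with a difference of -1.12 in log2 (adjusted p = 0.676). Plekhm2 links lysosomes to the kinesin motor. The other two were a family B domain (chr9:41906367-41912425), with 21.4, 21.5, 14.6 and 4.32 CPM and a log2 fold-change of -1.18, and a family A domain near Ctrc (chr4:141848421-141853848), with 14.5, 8.84, 5.27 and 5.62 CPM and a log2 fold-change of -1.09. In all 5, every βRapKO library lay below every WT library.

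The 5 highest included the domain with the lowest adjusted p. A family A domain between genes (chr7:32666424-32673726, 7303 bp, with 100% of its 50-base words repeated) had 202 and 229 tags in WT and 546 and 559 in βRapKO, which is 7.90, 7.31, 18.7 and 19.2 CPM. The log2 fold-change was 1.32 (edgeR's quasi-likelihood test, adjusted p = 0.173), and this was the domain that DESeq2 called (adjusted p = 0.0239). A copied domain (chr8:71812101-71817428) had 8.13, 4.09, 11.57 and 12.99 CPM (1.02), and a family A domain (chr2:181916041-181922387) had 13.99, 11.2, 23.48 and 24.7 CPM (0.94). In these 3 every βRapKO library lay above every WT library. The Nup107 domain (chr10:117769701-117775130, exons 12 to 17 of a nuclear pore gene) had 2.50, 3.67, 2.46 and 8.81 CPM (0.86), and here βRapKO replicate 2 alone stood high, without which the log2 fold-change was -0.335. The Mroh2a domain (chr1:88252293-88257483, exons 31 to 37) had 5.39, 4.98, 5.89 and 12.96 CPM (0.86), again with the excess in βRapKO replicate 2, without which it was 0.184.

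**Figure D4:**
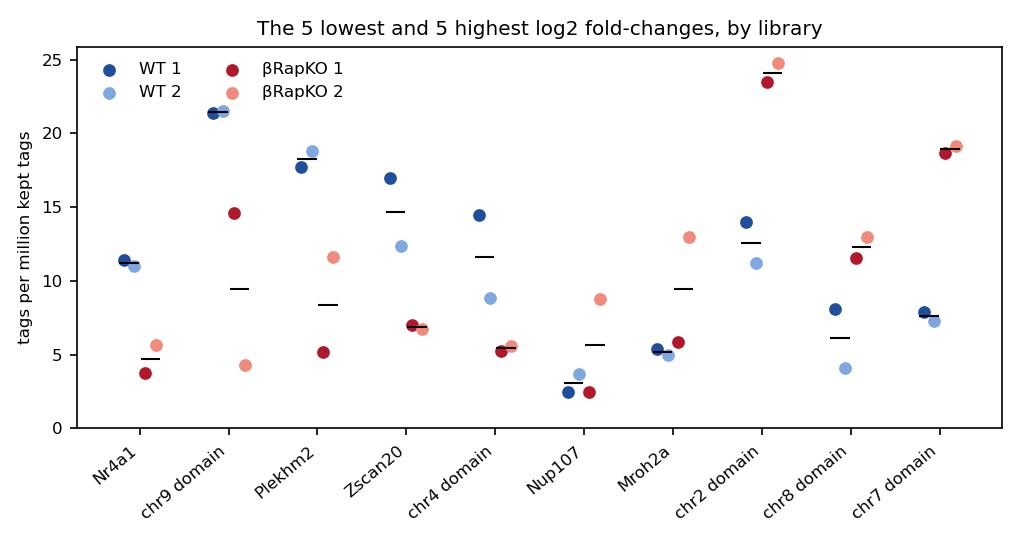
CPM (y axis) in each library for the 5 domains with the lowest and the 5 with the highest log2 fold-change (x axis, ordered from -1.24 to 1.32), with the mean of each genotype as a black bar. The points of the genotypes overlap for Nup107 and are set apart by a single high βRapKO library for Mroh2a.

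These tag differences followed how much of a domain had been called. Over the 460 domains the log2 fold-change and the log2 ratio of bases in peaks, βRapKO over WT, had a Pearson r of 0.940, as a description across domains of the same 4 libraries. The r was 0.647 over all regions. Tags were counted only inside peaks, so tags and bases in peaks rise together by construction. The part of the choice by width in the higher r of the domains was not tested. In the chr7 domain peaks covered 37.5% and 22.5% of the width in WT and 99.5% and 98.1% in βRapKO. In the Nr4a1 domain they covered 97.1% and 66.4% in WT and 34.1% and 51.6% in βRapKO. Counted per kb of peak, all 5 of the highest domains had a log2 fold-change below 0, from -0.46 for Mroh2a and the chr7 domain to -0.21 for Nup107, and the 5 lowest ranged from -0.35 for Nr4a1 to -0.0030 for the chr4 domain near Ctrc. No domain exceeded 1.5-fold in the same direction on both scales.

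**Figure D5:**
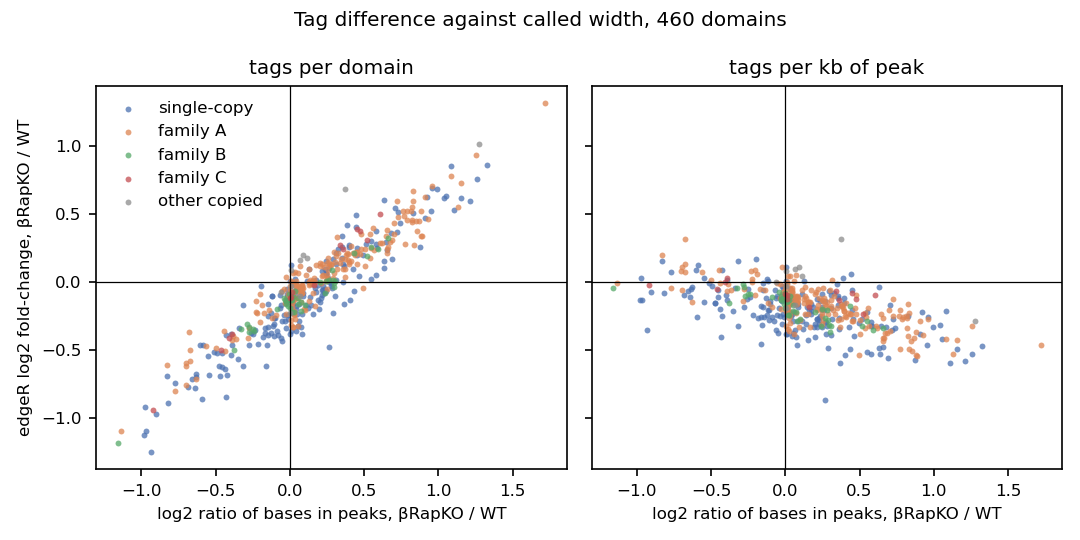
edgeR log2 fold-change, βRapKO over WT (y axis), against the log2 ratio of bases covered by peaks (x axis) for 460 domains, coloured by sequence class, for tags per domain (left) and tags per kb of peak (right). The left points follow a rising line (r = 0.940), and on the right 416 of 460 points lie below 0.

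The extent of the calls itself differed between libraries. Peaks covered a median of 79.6% and 74.2% of a domain in WT and 88.6% and 94.9% in βRapKO. A domain consisted of 2 or more peaks of the same library in 90 and 135 cases in WT and in 68 and 60 cases in βRapKO. The fragment length estimated by the caller was 275 and 238 bp in WT and 269 and 283 bp in βRapKO, and 25585533 and 31330751 tags were kept in WT and 29220997 and 29175287 in βRapKO. WT replicate 2, with the shortest fragments and the most tags, had the lowest coverage and the most split domains, and the part of fragment length and depth in these values was not tested.

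Per kb of peak the domains held fewer tags in βRapKO. The divisor was the bases in peaks. These covered a median of 79.6% and 74.2% of a domain in WT and 88.6% and 94.9% in βRapKO. Median CPM per domain was close, with 13.5 and 14.3 in WT and 12.9 and 14.1 in βRapKO. The part of the wider calls in the lower values per kb was not tested. The median was 3.32 and 3.396 CPM per kb in WT and 2.96 and 2.93 in βRapKO, so both βRapKO libraries lay below both WT libraries. An exact two-sided permutation test of these 4 medians gave p = 0.333, the smallest value that 2 libraries against 2 allow. The median log2 fold-change per kb was -0.18 and 416 domains (90.4%) lay below 0. Over all regions the medians were 2.04, 2.15, 1.84 and 1.87 CPM per kb, the median log2 fold-change per kb was -0.17 and 79.8% lay below 0. No domain passed the FDR on this scale, with a lowest adjusted p of 0.172 in edgeR's quasi-likelihood test. The spread between replicates was narrower per kb, with a median of 0.13 for the absolute log2 ratio averaged over WT and βRapKO.

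The domains with the most tags lay mostly outside the exons described above. The highest was a domain of chr17 (chr17:39842489-39849327) annotated with ribosomal RNA sequence and the genes Gm26917, AY036118 and CT010467.1, with 255.5, 251, 231.8 and 241.8 CPM. It was also the densest in CpG, at 8.82 per 100 bp. Ribosomal RNA genes occur in many copies of which the reference holds few, so its tags may come from many loci. A domain of chr11 (chr11:3099765-3106227), 25623 bp from Sfi1, had 103, 94.7, 96.0 and 103 CPM, and a domain over the first exons of Sfi1 (chr11:3188727-3196327) had 61.0, 66.4, 74.7 and 62.0 CPM. A domain over Thada exons 2 and 3 (chr17:84458774-84464704, 78.6% of words repeated) had 59.5, 54.1, 59.2 and 61.7 CPM. In these 3 the genotypes overlapped. The most CpG-dense family A domain (chr10:27817723-27826316, 5.54 CpG per 100 bp) had 58.8 and 63.5 CPM in WT and 46.3 and 52.2 CPM in βRapKO, without overlap.

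The widest domains were also divided among libraries. The widest, 10968 bp at Duxf3 and Gm4981 (chr10:58229321-58240288), had 1216, 1336, 1537 and 357 tags, with βRapKO replicate 2 far below the others. Duxf3 is a copy of Dux, a homeobox gene of the early embryo. The adjacent domain at AW822073 (chr10:58220506-58229227) had 1377, 1187 and 1541 tags and no call in βRapKO replicate 2. The next widest, 10062 bp over exons 48 to 70 of Lrp1 (chr10:127548144-127558205), a large endocytic receptor, had 328, 1037, 729 and 592 tags. Its peaks covered 26.7% of the width in WT replicate 1 and 94.8% in WT replicate 2, so the replicates of WT differed more than the genotypes.

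Several gene lists held no covered gene. In all, 318 of 21911 protein-coding genes (1.45%) were overlapped by a domain within the gene or its upstream 2 kb. No domain reached any of the 8 islet hormone genes, 20 genes of glucose sensing and granule exocytosis, 28 genes of mTORC1 and its regulators, 13 regulators of alpha cells and progenitors, 39 Hox genes or 56 clustered protocadherins.

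Other lists were reached in 1 or 2 genes each. Among 31 disallowed genes, which beta cells normally keep low, Cat and Oat carried a domain. The Cat domain (chr2:103460749-103466813, catalase) had 7.39, 16.5, 6.57 and 16.0 CPM, and replicate 2 was the higher library in both genotypes. The Oat domain (chr7:132566402-132573133, exons 2 to 4 of ornithine aminotransferase, and also within Fgfr2 as annotated) had 11.4, 12.3, 9.31 and 13.3 CPM, and the genotypes overlapped. Of 12 calcium channel and Shank genes, Cacna1g, a T-type calcium channel, had a domain over exons 27 to 33 (chr11:94414678-94419982) with 11.6 and 8.84 CPM in WT and 6.26 and 7.03 CPM in βRapKO. Both βRapKO libraries were lower, with a log2 fold-change of -0.62 (edgeR's quasi-likelihood test, adjusted p = 0.620). Of 39 imprinted genes only Gnas was covered, in an intron that also holds the antisense transcript Nespas (chr2:174294186-174301492). It had no call in WT replicate 1 and 11.1, 8.62 and 17.5 CPM in the other libraries. Of 15 genes that write, erase or read DNA methylation only Mbd1 was reached, by a family A domain ending 1212 bp away (chr18:74259063-74266393) with 16.5, 23.6, 10.9 and 24.8 CPM. Of 28 collagen genes only Col7a1 was covered, and of 1464 chemoreceptor genes only Vmn1r88 and Vmn2r35.

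The list named giant structural and adhesion proteins, which also holds the repressor gene Spen and the receptor gene Lrp1, was most often covered. A domain lay on 10 of these 56 genes (17.9%), namely Agrn, Bsn, Celsr2, Fat1, Fbn2, Flnc, Hspg2, Lrp1, Spen and Ttn, with 13 domains in all. Long genes offer more sequence to overlap, and the list was chosen with earlier results of these data known. Of 397 zinc finger genes 5 were reached (1.26%). A family A domain upstream of Zfp872 (chr9:22181207-22186446) had 10.3 and 9.99 CPM in WT and 14.2 CPM in both βRapKO libraries. The log2 fold-change was 0.48 (edgeR's quasi-likelihood test, adjusted p = 0.432), and its peaks covered 60.2% and 60.3% of the width in WT and 99.3% and 100% in βRapKO. The Zfp462 domain (chr4:55007187-55015015), over the whole coding exon 3, had 18.0, 20.6, 17.7 and 16.8 CPM.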

How the data were processed

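Genomic DNA of islets was immunoprecipitated with a MagMeDIP kit and sequenced for 50 cycles. The authors aligned reads to mm10 with Bowtie2 2.2.5 and called peaks per library with MACS, 1.4.2 per the file headers (0.14.2 in the processing notes), at a p cutoff of 1e-05 without a control library, keeping 1 tag per position. How reads with several matches were treated is not given in the sources used here. The deposited values are a raw count of tags per peak, a score (the −log10 of the caller p, multiplied by 10) and a fold enrichment ratio.

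Members and gene lists were chosen with earlier results of these data known. Tags of a library's peaks in a region were summed and divided by its kept tags, 25585533 to 31330751 per library, for CPM. All 75052 regions on chr1 to chr19, X and Y with a peak in every library were tested with edgeR 4.0.16 (quasi-likelihood, Benjamini-Hochberg). The fit was tested on simulated data. Genes and exons of 1 main transcript came from GENCODE M21, and sequences from GRCm38. Families came from minimap2 and direct repeats from BLAST 2.17.0. Named domains were the 10 widest, the 10 with the highest CPM, the 5 lowest and highest log2 fold-changes, those called in 1 genotype (5 where over 10), up to 4 genes per list, the 5 with the longest coding exons and the 3 most and fewest in CpG. Of these, 1 domain is not reported here. The Hivep2, Zfhx3 and Pkdrej domains were named after their values were seen. Alternatives included DESeq2 1.42.0, limma 3.58.1 on log2(CPM + 0.5), TMM, other library sizes, widths, peak scores and overlaps, leaving out each library, and the replicate number as a block.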

Additional observations from a re-analysis of the deposited data

How the results depend on the processing

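The number of domains, 584, was 381 with a caller score of at least 100, 1706 from 4000 bp, 268 from 6000 bp, 2 from 10000 bp and 46 with a single peak of 5000 bp or more in every library, and 463 to 519 without 1 library. With the higher score 250 domains had a peak in all 4 libraries, 18 a peak in both WT libraries only and 2 in both βRapKO libraries only. DESeq2 called 1 domain higher in βRapKO (and 2 of all 75052 regions), and no other fit called any. The median log2 fold-change was 0.0191 with TMM (47.39% lower in βRapKO), 0.118 with tags in peaks (32.83%), 0.018 with DESeq2 (47.61%), -0.18 per kb of peak (90.43%) and -0.252 from 10000 bp (100%, of 2 domains), and -0.088 to -0.006 without 1 library. TMM moved the median of all regions from -0.06 to 0.0038.

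Per kb of peak the log2 fold-change reversed for Mroh2a (-0.465), Zfp872 (-0.244), Nup107 (-0.208) and the domains of chr2 (-0.317), chr7 (-0.461) and chr8 (-0.287). Without βRapKO replicate 2 and without βRapKO replicate 1, respectively, the log2 fold-change was -0.335 and 1.5 for Nup107, 0.184 and 1.32 for Mroh2a, -1.82 and -0.653 for Plekhm2, -0.558 and -2.31 for the chr9 domain and -0.315 and -0.068 for Fat1 exon 9. Without WT replicate 2 and 1 it was 0.595 and 1.59 for the chr8 domain, and without WT replicate 1 it was -0.699 for the chr4 domain and -0.412 for Cacna1g.

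Same-numbered libraries did not deviate together (r = 0.0474 over 75052 regions), and the numbers were not taken as pairs. With the replicate block the median was -0.0421, 148 domains had an unadjusted p under 0.05 against 100, and no domain passed the FDR. Levels in libraries without a call were not measured, which limits every statement on missing calls.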

Other observations

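The domains were unevenly spread over the chromosomes. There were 5.04 per 1000 regions on chr4 (58 domains), 4.34 on chr11 (44) and 4.25 on chr5 (52), against 1.65 on chr3 (17) and 1.70 on chr14 (14). On chr4, 37 of 58 domains and on chr11, 33 of 44 were mostly single-copy, against 3 of 14 on chr14. Among tested domains, 17 of 21 on chr9 and 28 of 44 on chr4 had a log2 fold-change below 0, against 60.8% of all regions. The domain medians of these chromosomes, -0.20 and -0.13, were the lowest of the 19, while all tested regions there had -0.06 and -0.07. The highest domain medians were 0.04 on chr6 and chr7, where 10 of 20 and 12 of 28 lay below 0. Only 37 of 584 domains lay within 10000 bp of another.

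The 3 domains poorest in CpG were a domain 25869 bp from Btg1 (chr10:96648678-96654002), with 0.714 CpG per 100 bp and 11.18, 5.90, 5.54 and 6.38 CPM in WT replicate 1 and 2 and βRapKO replicate 1 and 2, a domain in an intron of Prim2 (chr1:33472091-33477791), a primase subunit, with 0.737 CpG per 100 bp and 9.77, 10.05, 5.85 and 9.32 CPM, and a domain between genes of chr18 (chr18:3003474-3011316), with 0.778 CpG per 100 bp and 40.4, 26.7, 37.8 and 35.1 CPM. All 3 held less CpG than the median merged region, 1.60 per 100 bp. The genotypes overlapped in the first and the third, and both βRapKO libraries lay below both WT libraries at Prim2.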
